A study of Mus musculus with 42 samples.

Results

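Long LAD-free stretches were described in mouse liver, as the gaps of 1 Mb or more that remained on the autosomes between neighbouring lamina-associated domains (LADs) once the LADs of 14 lamin B1 (LMNB1) ChIP-seq libraries had been merged. They were chosen by the LAD positions themselves, so their number, length and place are a description with no test. Of 297 gaps between the 316 merged autosomal LADs, 221 were long enough, and the remaining 76 were shorter. Sequence before the first and after the last LAD of each autosome was left out.

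The libraries came from livers of wild-type C57Bl/6 mice, 1 liver per library, with 2 mice at each of 7 time points. Non-synchronized (NS) mice were killed 18 h before entrainment of the clock, when food had not yet been withheld. In the other 6 groups the clock was entrained by a fast of 24 h that ended at circadian time zero (CT0), and each is named after the hours since then, as CT0, CT6, CT12, CT18, CT24 and CT30. No genetic change or drug was used, and every CT group shares the fast, so that time after refeeding and the fast itself cannot be told apart from the clock. Whole liver was used, which holds endothelial, Kupffer and stellate cells besides hepatocytes, and LADs alone cannot check the tissue. The labels give the sex of the mice as female in one field and male in another.

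LADs are long domains in which chromatin lies against the nuclear lamina, a meshwork of A- and B-type lamins under the inner nuclear membrane, and they are in general poor in genes, rich in A and T and transcriptionally quiet. The chromatin between them is usually in the nuclear interior and holds most genes in use. The hepatocyte is known for the secretion of plasma proteins, for gluconeogenesis, lipid and amino acid metabolism and for the oxidation of drugs, and these functions follow feeding and the clock.

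To show what the start of a gene in these stretches looks like, the 250 bases before the start site are given for the gene nearest the middle of the longest stretch (Rnf144b, a ubiquitin ligase), for 3 clock genes (Per1, Nr1d1 and Dbp) and for 2 genes of secreted liver proteins (Apoa1, the main protein of high-density lipoprotein, and Alb, serum albumin). They are RefSeq promoters on GRCm38.p6, written 5′ to 3′ on the strand of the gene, and capitals mark each CG dinucleotide (CpG). Dpysl2 and Megf11, nearest the middle of the next longest stretches, are named only.
Rnf144b: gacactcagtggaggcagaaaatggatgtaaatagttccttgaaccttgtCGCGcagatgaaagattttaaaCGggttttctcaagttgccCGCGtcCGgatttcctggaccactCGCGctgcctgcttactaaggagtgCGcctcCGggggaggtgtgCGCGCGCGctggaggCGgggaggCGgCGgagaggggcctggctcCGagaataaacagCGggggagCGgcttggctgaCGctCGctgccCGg
Per1: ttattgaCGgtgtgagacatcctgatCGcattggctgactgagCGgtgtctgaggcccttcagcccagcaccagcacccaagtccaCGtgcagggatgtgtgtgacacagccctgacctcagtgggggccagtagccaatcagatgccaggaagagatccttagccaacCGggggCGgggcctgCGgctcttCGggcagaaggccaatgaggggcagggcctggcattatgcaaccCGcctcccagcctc
Nr1d1: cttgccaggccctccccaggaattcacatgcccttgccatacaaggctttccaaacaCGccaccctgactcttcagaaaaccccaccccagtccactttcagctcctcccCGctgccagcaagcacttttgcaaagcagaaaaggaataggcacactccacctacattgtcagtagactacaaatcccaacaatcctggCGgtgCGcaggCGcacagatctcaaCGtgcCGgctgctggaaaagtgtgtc
Dbp: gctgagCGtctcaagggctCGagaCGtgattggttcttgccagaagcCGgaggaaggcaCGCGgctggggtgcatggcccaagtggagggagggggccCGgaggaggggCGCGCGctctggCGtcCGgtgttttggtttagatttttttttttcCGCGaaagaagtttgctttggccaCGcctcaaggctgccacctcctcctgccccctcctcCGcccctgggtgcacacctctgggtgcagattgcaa
Apoa1: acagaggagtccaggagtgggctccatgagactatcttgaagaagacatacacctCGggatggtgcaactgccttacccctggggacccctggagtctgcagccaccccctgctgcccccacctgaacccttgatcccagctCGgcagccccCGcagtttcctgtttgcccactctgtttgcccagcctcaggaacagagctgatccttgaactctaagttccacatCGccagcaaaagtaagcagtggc
Alb: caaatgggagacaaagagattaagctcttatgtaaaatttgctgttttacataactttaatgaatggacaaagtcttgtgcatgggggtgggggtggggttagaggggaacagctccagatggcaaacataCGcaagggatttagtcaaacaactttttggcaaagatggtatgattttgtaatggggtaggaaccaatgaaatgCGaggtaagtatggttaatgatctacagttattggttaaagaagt
These bases lie at chr13:47122470-47122719 (plus strand) for Rnf144b, chr11:69098699-69098948 (plus) for Per1, chr11:98775378-98775627 (minus) for Nr1d1, chr7:45704997-45705246 (plus) for Dbp, chr9:46228380-46228629 (plus) for Apoa1 and chr5:90460620-90460869 (plus) for Alb. Rnf144b had 23 CpGs and a GC content of 61.2%, and Dbp had 16 CpGs and 62.4%. Alb had 2 CpGs and a GC content of 39.2%. Apoa1 had 4 CpGs at 58% GC, Nr1d1 had 7 at 54.8% and Per1 had 9 at 62%. The 2 liver genes thus had fewer CpGs than the other 4. Per1 was the only one of the 6 with CACGTG, the E-box letters, in this window, once, and RefSeq lists a further start site for Per1 downstream of the one shown, which is itself 3732 bases from the GENCODE start of the gene.

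The 221 stretches added up to 1218 Mb, or 49.5% of the 2463 Mb of the autosomes. The merged LADs took 36.4%, the shorter gaps 1.06%, the sequence before the first LAD 5.28% and that after the last LAD 7.80%. The median length was 3.78 Mb (quartiles 1.97 and 7.02 Mb), and the range was 1.02 to 26.9 Mb. There were 56 stretches of 1 to 2 Mb, 77 of 2 to 5 Mb, 54 of 5 to 10 Mb and 34 of 10 Mb or more. The 34 longest held 519 Mb, and 50% of the total length lay in 44 stretches, 19.9% of them. At the limit, the shortest stretches kept were 1.018 Mb on chromosome 1, 1.019 Mb on chromosome 17 and 1.032 Mb on chromosome 8, and the longest gaps not kept were 0.996 Mb on chromosome 4, 0.985 Mb on chromosome 1 and 0.966 Mb on chromosome 6. Of the shorter gaps, 4 were 1 base long, and the median of all 76 was 0.312 Mb.

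The share of an autosome in long LAD-free stretches was lowest on chromosome 7 (31.2%) and chromosome 5 (32.9%) and highest on chromosome 3 (61.7%), chromosome 13 (61.1%) and chromosome 10 (60.2%). On chromosomes 5 and 7 much LAD-free sequence lay after the last LAD, 42.4 Mb and 36.5 Mb, and was outside the definition. Chromosomes 2 and 3 had the most stretches, 18 each, and chromosomes 14 and 15 the fewest, 8 each.

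**Figure D1:**
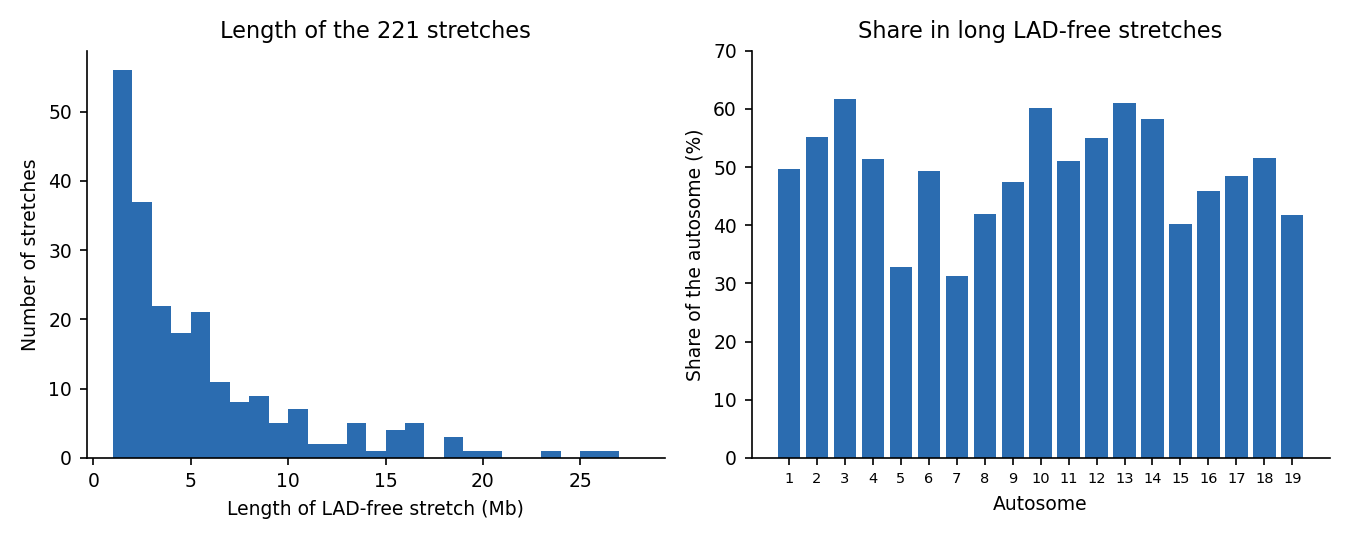
Left, histogram of the lengths of the 221 long LAD-free stretches in bins of 1 Mb, with the number of stretches on the vertical axis. Right, bars give the share of each autosome (%) that lies in these stretches, from 31.2% on chromosome 7 to 61.7% on chromosome 3.

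The longest stretch was chr13:33880001-60760000, at 26.9 Mb with 208 protein-coding genes. It holds Nfil3, the repressor of D-box genes in the clock, 7.78 Mb from the nearest LAD, and Tpmt, which methylates thiopurine drugs. The next were chr14:53955001-79712000 (25.8 Mb, 304 genes, among them Dpysl2 and Adra1a, an adrenergic receptor) and chr9:52836001-76044000 (23.2 Mb, 236 genes). The latter holds the clock regulator Rora and the hepatic transcription factor Onecut1. On chromosome 4 the stretch chr4:122796001-143437000 (20.6 Mb, 346 genes) holds Nr0b2, a repressor of bile acid synthesis, which lies 9.88 Mb from a LAD.

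The other 6 of the 10 longest were between 16.4 and 19.5 Mb. On chromosome 6, chr6:82015001-101498000 holds the Kupffer cell receptor Clec4f. On chromosome 2, chr2:151488001-170373000 holds Hnf4a and Cebpb, both regulators of hepatocyte genes. On chromosome 12, chr12:69137001-87779000 holds the liver glycogen phosphorylase Pygl and the envelope protein gene Syne2. On chromosome 18, chr18:52145001-70686000 holds Lmnb1, the gene of the protein that was immunoprecipitated, and the growth factor receptor genes Csf1r and Pdgfrb. On chromosome 11, chr11:93940001-110698000 had the most genes of the 10, 410, with G6pc, the last enzyme of gluconeogenesis, Nr1d1, Pecam1, Col1a1 and Krt19. On chromosome 3, chr3:93027001-109434000 holds the clock gene Ciart and Cd2, a lymphocyte adhesion receptor.

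Because every library enters the merge, a single LAD in 1 mouse ends a stretch. The distance of a gene to a LAD is measured to the nearest merged LAD, so a short one can rest on 1 mouse. Of the 442 borders, 438 (99.1%) were set by 1 library and 4 by several at the same base. The median number of libraries with a LAD edge or LAD within 100 kb of a border was 2, and 197 borders had only the library that set them. At 500 kb, 7 borders had all 14 libraries and 77 had 1. CT18 replicate 2 set the most borders, 88, and CT30 replicate 2 the fewest, 6, with a median of 28.5 over the 14 libraries.

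Taken alone, a library had 52 (NS replicate 1) to 241 (CT18 replicate 2) LAD-free stretches of 1 Mb or more, with a median of 144, and its LADs covered 333 to 652 Mb of the autosomes. Where a library had a LAD on both sides, its own LAD-free stretch around a member was by construction at least as long as the member, and the median ratio to the member was 1.82. For 110 of the 221 stretches all 14 libraries had a LAD on both sides. The longest, on chromosome 13, had own stretches of 27.0 to 37.7 Mb (median 33.4 Mb) in 10 libraries. The one on chromosome 6 varied least among the 10 longest that all 14 libraries bound, with 19.7 to 22.4 Mb and a median of 20.4 Mb. The one on chromosome 3 ranged from 18.3 Mb in CT18 replicate 2 to 77.3 Mb in CT0 replicate 1. On chromosome 11 only 3 libraries had a LAD on both sides of the stretch, with 16.8 to 18.3 Mb.

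The stretches held 13778 of the 20807 protein-coding genes of the autosomes (66.2%), with a gene placed by its start site. Their density was 11.3 protein-coding genes per Mb, against 3.97 in the merged LADs, 8.46 in the shorter gaps, 6.11 before the first LAD and 12.8 after the last LAD. Over all autosomes it was 8.45. The sequence before the first LAD includes 44.5% unknown bases (N) near the centromere, and the shorter gaps 9.30%, against 0.292% in the stretches. Genes of long non-coding RNAs were at 5.20 per Mb in the stretches and 1.73 in the merged LADs, and those of miRNAs at 1.15 and 0.389. After the last LAD these were at 5.90 and 1.07 per Mb. Pseudogenes went the other way, at 4.52 per Mb in the stretches and 5.45 in the merged LADs. The median protein-coding gene was 19.7 kb long in the stretches and 9.01 kb in the merged LADs.

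More protein-coding genes per Mb were found in the stretches than in the merged LADs on 19 of 19 autosomes. The ratio was lowest on chromosome 9, with 10.2 against 7.12 genes per Mb (1.43-fold), and highest on chromosome 15, with 11.2 against 1.41 (7.93-fold). The median over autosomes was 3.38-fold, and it was 2.85-fold with all autosomes together. Chromosomes 11 and 7 had the densest stretches, at 19.2 and 18.0 genes per Mb, and chromosome 7 also had the densest merged LADs, at 11.1. No test was made over regions or genes, which are not replicates of a condition.

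The base composition differed in the same places. GC content was 43.6% in the stretches and 38.7% in the merged LADs, and it was higher in the stretches on 19 of 19 autosomes. CpGs occurred at 0.209 of the number that the C and G content alone would give, against 0.156 in the merged LADs. Bases soft-masked as repeats made up 29.4% of the stretches and 40.2% of the merged LADs. The long stretches were not extreme among LAD-free sequence. After the last LAD GC content was 45.9%, the CpG value 0.219 and the soft-masked share 27.6%.

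Among the 221 stretches, gene density ranged from 0 to 47.6 protein-coding genes per Mb, with a median of 8.18 and quartiles of 5.60 and 12.7. GC content ranged from 36.7% to 50.1% (median 42.6%). Density rose with GC content (Spearman's rho 0.637 over the 221 stretches) and less with length (rho 0.295), as a description in which neighbouring stretches share a chromosome. Pooled by length, stretches of 1 to 2 Mb had 9.55 genes per Mb and those of 2 to 5 Mb 9.72. Those of 5 to 10 Mb had 11.1, and those of 10 Mb or more 12.5. The median GC content of a stretch, not pooled, was 41.3%, 42.4%, 43.5% and 44.0% in the same order.

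**Figure D2:**
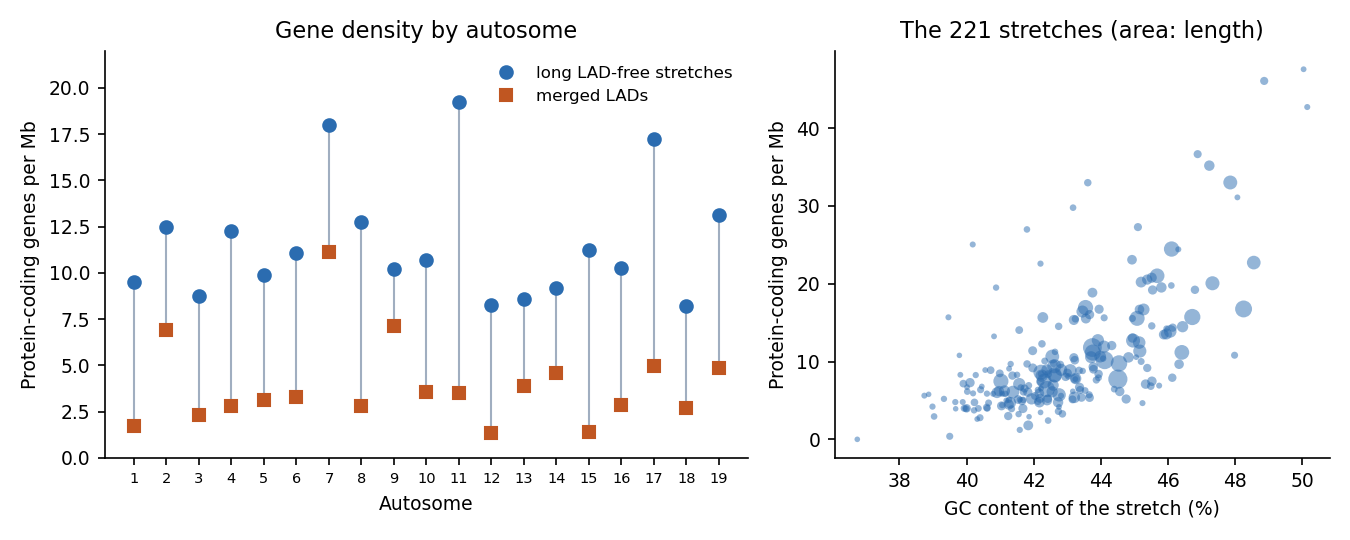
Left, protein-coding genes per Mb in the long LAD-free stretches (circles) and in the merged LADs (squares) of each autosome, with the circle above the square on 19 of 19. Right, each of the 221 stretches by its GC content (%) and its protein-coding genes per Mb, with the area of the point growing with length, and the densest stretches lie at the highest GC content.

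At the borders these features changed within a short distance. In the 50 kb just inside the LAD there were 6.30 protein-coding start sites per Mb, and in the 50 kb just inside the stretch 11.04. On the LAD side the bins ranged from 3.06, at 950 kb to 1 Mb from the border, to 6.95. On the other side they ranged from 9.26 to 11.6. Soft-masked bases fell from 37.5% to 32.1% across the border. GC content went from 40.9% to 41.7% there, its largest change between neighbouring bins. It also changed more slowly on both sides, and reached 43.3% at 900 to 950 kb inside the stretch. The merged border is the outermost LAD edge of 14 libraries.

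**Figure D3:**
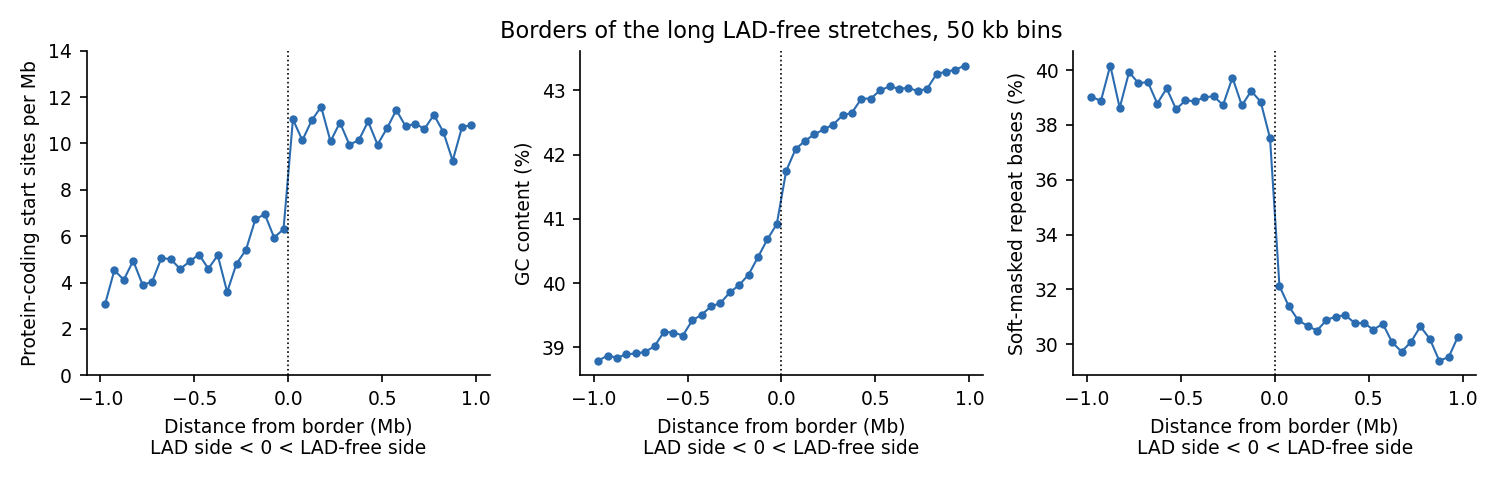
Protein-coding start sites per Mb, GC content (%) and soft-masked bases (%) in bins of 50 kb against the distance (Mb) from the 442 borders, with negative values on the LAD side and the dotted line at the border. Start sites per Mb step from 6.30 to 11.04 at the border and soft-masked bases from 37.5% to 32.1%. GC content steps from 40.9% to 41.7% and also climbs on both sides.

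The 5 densest stretches had 35.2 to 47.6 protein-coding genes per Mb. The densest, chr7:18724001-19985000, was 1.26 Mb long with 60 genes, among them Apoe, the ligand by which remnant lipoproteins are taken up, the liver transcription factor Foxa3 and the DNA repair genes Ercc1 and Ercc2. The next, chr7:43282001-47058000, had 174 genes in 3.78 Mb, including Dbp, a D-box activator with strong daily cycles, and Nkg7 of cytotoxic lymphocytes. The stretch chr17:55860001-57358000 had 64 genes in 1.498 Mb, with C3, the central complement protein, 0.130 Mb from a LAD. Per1 and the macrophage gene Cd68 lie in chr11:67445001-71154000, which had 136 genes in 3.71 Mb. The last of the 5, chr7:24095001-31171000, had 249 genes in 7.08 Mb.

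The 5 poorest had 0 to 2.41 protein-coding genes per Mb, below the 3.97 of the merged LADs. One stretch, chr3:23720001-24804000, had no protein-coding start site in 1.08 Mb and the lowest GC content of all, 36.7%. On the same chromosome chr3:148082001-150645000 had 1 gene in 2.56 Mb, Adgrl2, a receptor of the latrophilin family. The stretch chr7:38628001-40278000 had 2 genes in 1.65 Mb and 9.09% unknown bases. In chr7:69800001-75936000 there were 11 genes in 6.14 Mb, among them the chromatin remodeller Chd2, the guidance molecule Rgma and St8sia2. The last, chr12:12096001-14168000, had 5 genes in 2.07 Mb with the oncogene Mycn, Nbas and Ddx1. In all, 10 stretches had fewer than 3 genes per Mb and 22 had more than 20.

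None of the genes in the lists of plasma proteins, liver metabolism and liver transcription factors had its start site in a merged LAD. Of 25 autosomal genes of plasma proteins made by the liver, 23 (92%) were in the stretches, 1 in a shorter gap (Hpx, hemopexin), 1 before the first LAD of its chromosome (Plg, plasminogen) and 0 in a merged LAD. For comparison, 66.2% of all protein-coding genes were in the stretches and 17.1% in the merged LADs. The 23 were spread over 19 stretches. Alb and Afp, the albumin and alpha-fetoprotein genes, shared a stretch of 4.83 Mb on chromosome 5, chr5:88483001-93310000, at 1.98 and 2.01 Mb from a LAD. Around it the 13 libraries with LADs on both sides had 4.89 to 8.42 Mb without a LAD (median 7.31 Mb).

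Apoa1 and Apoc3 were 5.86 Mb from a LAD in a stretch of 12.0 Mb on chromosome 9. Fga, Fgb and Fgg, which encode the chains of fibrinogen, were 2.13 to 2.17 Mb from a LAD. Serpina1a (alpha-1-antitrypsin) was 5.85 Mb and Serpinc1 (antithrombin) 5.49 Mb away. The nearest to a LAD were C3 at 0.130 Mb, Apoe at 0.286 Mb and Apob, the protein of very-low-density lipoprotein, at 0.436 Mb.

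Of 29 genes of liver metabolism, 19 (65.5%) were in the stretches, 10 before the first or after the last LAD and 0 in a merged LAD. All protein-coding genes had 66.2% in the stretches and 17.1% in merged LADs. Among the 19 were G6pc, 7.43 Mb from a LAD, Acaca (acetyl-CoA carboxylase) at 6.27 Mb and Ass1 of the urea cycle at 4.81 Mb. Cps1, which feeds the urea cycle, was 0.175 Mb from a LAD at the end of a stretch of 16.2 Mb. CT18 replicate 1 alone set that border, and over the libraries the nearest LAD beyond it was at a median of 13.3 Mb. Pck1 of gluconeogenesis was at 0.706 Mb and Cyp7a1, the rate-limiting enzyme of bile acid synthesis, at 0.606 Mb. The border near Pck1 was set by NS replicate 1 alone, with a median of 22.6 Mb over the libraries with a LAD on that side. For the border near Cyp7a1 this median was 0.106 Mb. Those outside included Fasn (fatty acid synthase), Cyp8b1, Asl, Hpd, Gys2, Cpt1a, Insr and Cyp2e1.

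Of 20 liver transcription factor genes, 18 (90%) were in the stretches, against 66.2% of all protein-coding genes. The others, Prox1 among them, lay after the last LAD. Hnf4a was 6.87 Mb from a LAD. Foxa1, Foxa2 and Foxa3, the pioneer factors of endoderm, were at 1.68, 0.877 and 0.2995 Mb. Cebpa was 0.986 Mb and Cebpb 2.68 Mb away. Nuclear receptors were at 0.508 Mb (Nr1h4, the bile acid receptor), 0.557 Mb (Ppara, the fatty acid sensor) and 5.25 Mb (Rxra, their partner). The borders near Nr1h4 and Ppara were set by CT18 replicate 2 and CT0 replicate 1. Over the libraries the nearest LAD lay a median of 9.03 and 5.13 Mb beyond them.

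Of 22 clock genes, 16 (72.7%) were in 14 of the stretches, near the 66.2% of all protein-coding genes. In a merged LAD was 1 (4.55%), against 17.1% of all. Rorb, the ROR family member of the nervous system, had a LAD over its start site in 12 of 14 libraries. Bhlhe40 lay in a shorter gap, and Arntl, Per3, Bhlhe41 and Csnk1d after the last LAD. Of the transcription factors at the core of the loop, Clock was 1.20 Mb and Npas2 1.63 Mb from a LAD. Among their repressors Per1, Per2, Cry1 and Cry2 were at 1.65, 2.38, 4.86 and 1.98 Mb. The nuclear receptors of the second loop were at 4.84 Mb (Nr1d1), 4.79 Mb (Nr1d2) and 7.39 Mb (Rora). In the D-box group, Dbp was 1.35 Mb, Tef 4.49 Mb and Nfil3 7.78 Mb away, but Hlf was only 0.00711 Mb from a LAD, the nearest of all clock genes in the stretches.

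Of 13 genes of the lamina and the nuclear envelope, 9 (69.2%) were in the stretches, near the 66.2% of all protein-coding genes, and 4 (Lbr, Banf1, Sun1 and Syne1) before the first or after the last LAD. Lmna was 2.17 Mb, Lmnb1 4.56 Mb and Lmnb2 6.05 Mb from a LAD. Hdac3, a deacetylase that joins the lamina to chromatin, was at 0.335 Mb. CT12 replicate 2 set that border, and over the libraries the nearest LAD beyond it was at a median of 6.95 Mb.

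The short marker lists of other liver cells had shares on both sides of the 66.2% of all protein-coding genes. In the stretches were 7 of 8 lymphocyte markers (87.5%), 6 of 8 of stellate cells (75%), 5 of 7 of Kupffer cells (71.4%), and 5 of 8 each of endothelial cells and cholangiocytes (62.5%). In merged LADs were 28.6% of the Kupffer cell and 25% of the stellate cell markers, 2 genes each, against 17.1% of all genes. The Kupffer cell gene Adgre1 (the antigen of F4/80) had a LAD over its start site only in CT24 replicate 1, and Timd4 in 4 libraries. The endothelial cadherin Cdh5 had it only in NS replicate 1 and the stellate cell factor Hand2 only in CT18 replicate 1. Col3a1 had it in 5 libraries and Cftr of cholangiocytes in 4. Levels of these cells in the samples were not measured here.

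Neuronal genes, whose expression was not analysed here, were placed otherwise, with 6 of 25 (24%) in the stretches and 18 (72%) in merged LADs. All protein-coding genes had 66.2% and 17.1%. Cntnap2 had a LAD over its start site in all 14 libraries, and Csmd3 and Ctnna2 in 13. At the other end Gria2 had it only in CT0 replicate 2, and Dlg2 in CT18 replicate 1 and CT24 replicate 1. The 6 in the stretches were Snap25, Gad1, Gad2, Slc17a7, Grin2a and Grin2b. Length, neighbourhood and use of these genes may differ from those of the liver lists, and the part of each in the placing was not tested.

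Some families of the liver lay in the stretches, as a whole cluster or in part. All 22 major urinary protein (Mup) genes, pheromone carriers that the mouse liver secretes, were in 1 stretch, chr4:53004001-63954000, of 10.9 Mb, where their median distance to a LAD was 2.93 Mb. That stretch has 3.65% unknown bases. Of 60 serpin genes 40 (66.7%) were in 11 stretches, near the 66.2% of all protein-coding genes, and 25% were in merged LADs, against 17.1% of all. In chr12:98014001-113398000, with the Serpina1 and Serpina3 genes, there were 23. The 15 serpin genes in merged LADs included Serpinb3a, Serpinb12 and Serpinb13 on chromosome 1, with a LAD in 2 libraries.

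Of 98 cytochrome P450 genes, whose products oxidise steroids, fatty acids and drugs, 74 (75.5%) were in 21 stretches. For all protein-coding genes the share was 66.2%. The Cyp2a and Cyp2b genes lay in the dense stretch chr7:24095001-31171000, which held 13, the Cyp4a genes in chr4:114619001-121260000 with 10, and the Cyp2d genes in chr15:73222001-86292000 with 10. The 13 genes outside at chromosome ends included Cyp3a11 and Cyp2e1. The 11 in merged LADs had the LAD in 1 or 2 libraries only. For 10 of them, the Cyp2c genes from Cyp2c29 to Cyp2c50 on chromosome 19, the library was CT12 replicate 1, joined by NS replicate 2 for 6, and for Cyp24a1 it was NS replicate 1. Cyp2c55, Cyp2c65 and Cyp2c66, next to them, were in a stretch that ends before Cyp2c29.

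Conjugating enzymes were split, with shares in the stretches on both sides of the 66.2% of all protein-coding genes. Of 19 UDP-glucuronosyltransferase genes, 9 Ugt1a genes (47.4%) were in 1 stretch on chromosome 1 and 10 in shorter gaps. Of 21 sulfotransferase genes 11 (52.4%) were in stretches, 8 of them Sult2a genes in chr7:12760001-14554000. Sult1d1 and Sult1e1 had a LAD in CT0 replicate 2 and CT12 replicate 1. Of 21 glutathione transferase genes 15 (71.4%) were in stretches, and Gsto1 and Gsto2 had a LAD in NS replicate 1 and CT0 replicate 1.

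Families that all cells need were mostly in the stretches, as were 66.2% of all protein-coding genes. The shares were 85.7% for subunits of respiratory complex I (30 of 35), 82.4% for aminoacyl-tRNA synthetases (28 of 34), 81.6% for proteasome subunits (40 of 49) and 75% for ribosomal proteins (60 of 80). Of the ribosomal protein genes 2 were in merged LADs. Rps27a had a LAD over its start site in 2 libraries, CT12 replicate 1 and CT18 replicate 1, and the other gene in 12 or more. All 67 histone genes of the clusters were in 5 stretches, with 31 in chr13:23122001-25170000 and 23 in chr13:20076001-22077000. These are short stretches, and the median distance of a histone gene to a LAD was 0.452 Mb, against 1.53 Mb for all protein-coding genes of the autosomes.

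Some families with other roles were in the stretches as well, at shares on both sides of the 66.2% of all protein-coding genes. Of 39 Hox genes, 30 were in 3 stretches (Hoxa, Hoxb and Hoxd clusters) and the 9 Hoxc genes lay after a last LAD. All 13 interferon alpha genes were in 1 stretch of 3.35 Mb on chromosome 4. Of 49 keratin genes 25 (51.0%) were in stretches, all in that with Krt19 on chromosome 11. By contrast 218 of 1128 olfactory receptor genes (19.3%) were in stretches, 26 in number, and 879 (77.9%) in merged LADs. Of all protein-coding genes 17.1% were in merged LADs. The olfactory receptor genes in stretches were gathered in clusters, as for Olfr722 to Olfr735 in a stretch with 30 of them on chromosome 14. For vomeronasal receptors it was 49 of 327 (15.0%), for bitter taste receptors 10 of 35, and for killer lectin receptors 7 of 26. Of 22 alpha defensin genes 0 were in stretches, and 21 had a LAD in 12 or more libraries.

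Clusters were also divided by a border. On chromosome 18, 21 of the 57 clustered protocadherin genes, the gamma genes, were in a stretch of 2.56 Mb, and the 36 others in a merged LAD, 28 of them with the LAD in 3 libraries. Of 42 beta defensin genes 16 were in 2 stretches, with 11 in the stretch of Hnf4a on chromosome 2, and 26 in merged LADs. Of 57 keratin-associated protein genes 28 (49.1%) were in stretches and 24 (42.1%) in merged LADs. The shares of all protein-coding genes were 66.2% and 17.1%. Genes of 1 cluster share their place and are not separate observations.

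**Figure D4:**
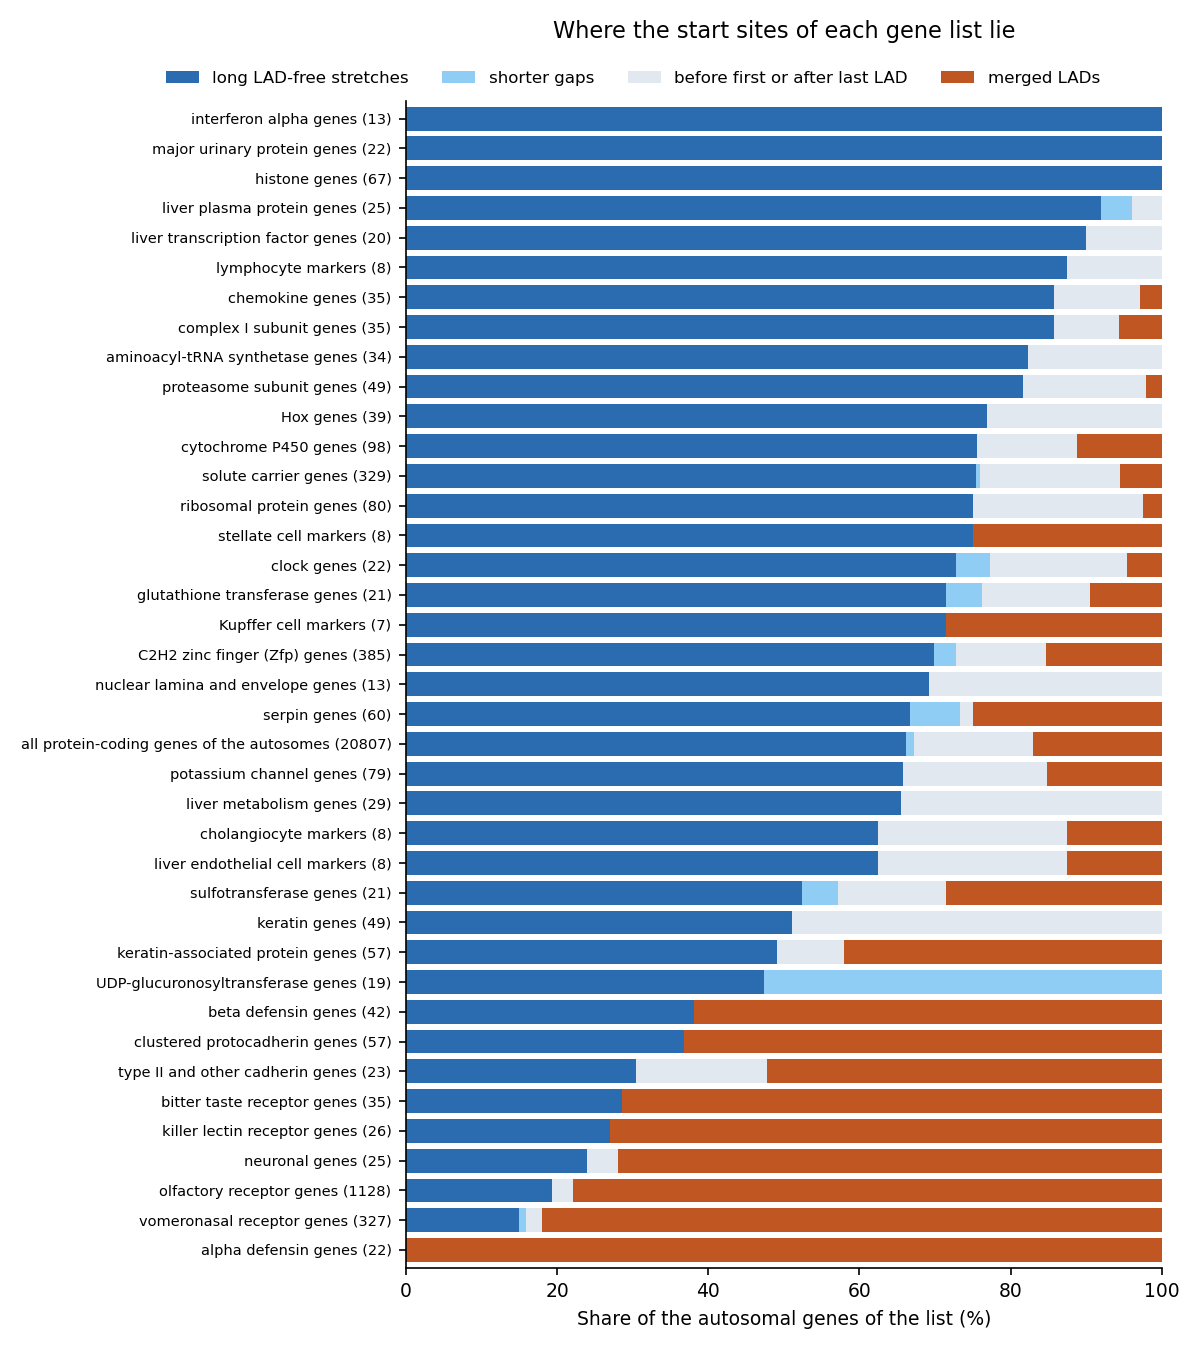
Bars give, for each gene list, the share (%) of its autosomal genes, whose number is in parentheses, with the start site in long LAD-free stretches, shorter gaps, sequence before the first or after the last LAD, and merged LADs. The list of plasma proteins has 92% in the stretches and 0 in merged LADs, all protein-coding genes have 66.2% and 17.1%, and alpha defensins have 0 in the stretches.

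The bases before start sites were richer in CpG in the stretches than in the merged LADs, as they also were in other LAD-free sequence. They were read from the genome before the GENCODE start site of 20799 protein-coding genes of the autosomes. A promoter was counted as CpG-rich when, over 250 bases, its GC content was 50% or more and its CpG number 0.6 or more of that given by its C and G content. In the stretches 5890 of 13776 promoters (42.8%) were CpG-rich, against 528 of 3555 in the merged LADs (14.9%) and 38.3% of all. The median number of CpGs was 10 in the stretches and 2 in the merged LADs. Before the first and after the last LAD together, 45.5% were CpG-rich with a median of 11 CpGs, and in the shorter gaps 34.8% with a median of 6. CACGTG, which reads the same on both strands, was found before 7.18% of the start sites in the stretches and 6.60% of all. It was found before 3.12% of those in the merged LADs and 7.88% of those before the first or after the last LAD.

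Within the stretches the lists differed. CpG-rich promoters were found for 12 of 16 clock genes, 8 of 9 genes of the lamina and envelope, 23 of 28 aminoacyl-tRNA synthetase genes, 37 of 60 ribosomal protein genes and 15 of 30 genes of complex I. For plasma proteins it was 0 of 23, with a median of 3 CpGs, and for liver metabolism 4 of 19. It was 4 of 74 for cytochrome P450 genes, 0 of 22 for Mup genes and 0 of 218 for olfactory receptors. The sequences of Alb and Apoa1 given above are thus examples of the CpG-poor promoters of plasma protein genes. These lie in LAD-free sequence beside CpG-rich ones. The Per1 and Nr1d1 sequences given above were not CpG-rich either, with CpGs at 0.375 and 0.410 of the number given by C and G content. Dbp, at 0.664, was.

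Whether a time point placed LADs in such stretches was asked with the libraries that had not been used to choose them. For each time point the stretches were found again from the 12 libraries of the other time points, which gave 216 to 222 stretches of 1223 to 1259 Mb, and the Mb that each left-out mouse covered in them were measured. The cover was small in every library, from 0.919 to 20.9 Mb, or 0.0751% to 1.66% of the length of the stretches. At NS it was 4.17 Mb in replicate 1 and 0.919 Mb in replicate 2. At CT0 it was 15.5 and 6.57 Mb, at CT6 5.36 and 3.94 Mb, and at CT12 2.82 and 2.16 Mb. At CT18 it was 20.5 and 20.9 Mb, at CT24 13.3 and 2.46 Mb, and at CT30 7.79 and 1.71 Mb. Both CT18 libraries were above the other 12, while the mice of NS, CT0, CT24 and CT30 were far apart.

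The mean was highest at CT18, at 20.7 ± 0.278 Mb (SD, n = 2), and lowest at CT12, at 2.49 ± 0.467 Mb (SD, n = 2). The difference between the 6 CTs did not pass the test (F ratio 4.49, one-sided p = 0.0943 by exact permutation, in which the 12 libraries were paired in each of the 10395 possible ways, and 0.213 after Benjamini-Hochberg adjustment over the 3 tests made). On 1 set of simulated libraries with a planted difference this test did not reach 0.05 either (exact permutation p = 0.0791). There the planted LADs lay at the same places in both mice of a time point, unlike most of the cover measured here. How often the test would find a difference here is thus not known, and a p above 0.05 does not show that the CTs were alike. Replicate 1 was above replicate 2 at 6 of the 7 time points. As a percent of each library's own LAD cover, CT18 had 3.32% and 3.21% and CT0 replicate 1 had 3.66%, and the F ratio was 2.30 (exact permutation p = 0.257). CT0 exceeded NS by 8.49 Mb (11.04 ± 6.32 against 2.55 ± 2.30 Mb, SD, n = 2), which an exact two-sided permutation test did not tell apart (p = 0.667, adjusted p = 0.667), and the smallest p that 2 mice against 2 allow is 0.333. The difference rested on CT0 replicate 1, without which it was 2.54 Mb.

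At CT18 the 20.5 Mb of replicate 1 fell in 57 of the 216 stretches and the 20.9 Mb of replicate 2 in 73, but only 3.31 Mb were covered in both mice. Mb covered in both were 1.27 at CT30, 1.09 at CT24, 0.534 at CT6, 0.459 at CT12 and 0 at CT0 and NS. The mean over the 7 time points was 0.953 Mb, against 0.576 Mb for the 84 other pairs of libraries, and the difference did not pass the exact permutation test, which used the 135135 ways to pair 14 libraries (one-sided p = 0.142, adjusted p = 0.213). With Mb in both mice over Mb in either in its place, the mean was 0.0683 and the exact permutation p = 0.0413, unadjusted.

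The sequence that both mice of a time point covered came to 41 regions and 6.67 Mb, and 28 of the regions had no protein-coding start site. They held 48 protein-coding genes, or 7.20 per Mb, against 8.45 over all autosomes and 11.3 in the 221 stretches. Of the 48 genes, 25 lay in 1 region of 0.409 Mb at CT6, so this density rests largely on 1 cluster. Most regions were short, and only 18 of the 41 were 0.1 Mb or longer. The longest was chr3:32767001-33810000 at CT30 (1.04 Mb, with Usp13, Pex5l and Ttc14). At CT18 the longest were chr2:57444001-58416000 (0.972 Mb, with Galnt5, Ermn, Cytip and the activin receptor gene Acvr1c) and chr4:85032001-85758000 (0.726 Mb, with Sh3gl2 and Adamtsl1). At CT12 chr1:106910001-107335000 (0.425 Mb) held Serpinb3a, Serpinb12, Serpinb13 and 3 further serpin genes, and at CT6 chr3:92411001-92820000 (0.409 Mb) held 25 genes with the Sprr family of the epidermis.

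**Figure D5:**
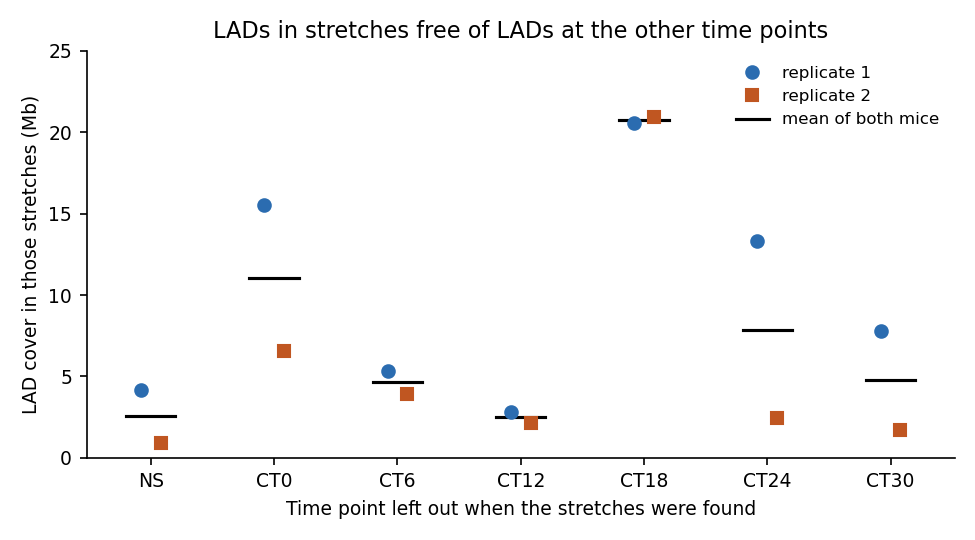
LAD cover (Mb) of each library in stretches of 1 Mb or more that are free of LADs at the 6 other time points, by the time point left out. Circles are replicate 1, squares replicate 2 and bars the mean of both mice, and the CT18 mice, at 20.5 and 20.9 Mb, are above the other 12.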

How the data were processed

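LMNB1 ChIP-seq of liver from 14 mice was used, as the LADs deposited for each mouse. Their unit is other than a count or a level: the deposited values are the start and end of each LAD in base pairs on mm10, with no score, so read depth is unknown and no counting interval could be had. The authors mapped reads with Bowtie (Bowtie2 2.25.0 in the submitters' processing notes), removed duplicates with Picard, brought each ChIP and its input to equal depth and ran EDD on each mouse. EDD returns broad domains, and the LADs per library ranged from 86 to 341, so that the stretches depend on its bin and gap settings. Inputs and RNA-seq were not analysed here.

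LADs of the 14 libraries were merged, touching ones included, and gaps of at least 1 Mb on chromosomes 1 to 19 were kept. Genes (GENCODE vM21) were placed by start site, the sequence was GRCm38.p6, and coordinates are 1-based. Groups are the time points of the labels, and the spread is that between 2 mice. F ratios and differences were tested by exact permutation of libraries, with Python 3.11.15 and NumPy 2.4.6, after tests on simulated data. The stretches, gene lists and tests were chosen with earlier results of these data known. Genes named are those of the lists or nearest the middle of the longest, shortest, densest and poorest stretches. Genes of regions covered in both mice, and those named for LADs in few libraries, were chosen after their values were seen. Alternatives were other minimum lengths, LAD sizes, merges, gene rules and each library left out. Some genes of the lists are not reported here by name.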

Additional observations from a re-analysis of the deposited data

How the results depend on the processing

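The number of stretches stayed within 1.5 times of 221 under all 23 alternatives, from 165 (minimum length 2 Mb) to 242. Their length moved by more than the SD of the 2 replicate sets to 1135 Mb at a minimum of 2 Mb, 1319 Mb with replicate 2 libraries only, 1321 Mb with bases covered in at least 2 libraries and 1331 Mb with the union of the intersects of each time point. Genes per Mb moved to 11.1 with replicate 1 only and 10.9 with replicate 2 only, 10.8 with bases covered in 2 libraries, 10.1 with the intersects and 11.1 without olfactory and vomeronasal receptor genes. The cause was not tested.

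Leaving out each library in turn gave 209 to 229 stretches, 1218 to 1238 Mb and 11.2 to 11.3 genes per Mb. It gave F ratios from 1.47 (without CT18 replicate 1) to 9.90 (without CT24 replicate 1), exact permutation p from 0.0508 to 0.360, differences of CT0 and NS from 2.54 Mb (without CT0 replicate 1) to 12.7 Mb, and Mb in both mice from 0.667 to 1.32. None of these crossed 0.05.

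With the replicate block the F ratio over the CTs was 8.02 (exact permutation p = 0.0389), which passed 0.05, and the difference of CT0 and NS stayed at 8.49 Mb (exact permutation p = 0.5, the smallest it allows). The labels do not say whether the replicate numbers pair the mice. Of 21 correlations between time points of the differences of replicates 1 and 2, 5 were over 0.1 (range -0.167 to 0.474). These cannot decide it, as no limit was set for them. With Mb in both mice over Mb in either, the mean was 0.0683 (exact permutation p = 0.0413). An alternative chosen after seeing the data, in which each library kept its value in every division, gave p = 0.0618 for the CTs by exact permutation. No score or depth is known, so no filter on the strength of a LAD could be tried.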
